A study of Bos taurus with 9 samples.

Results

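The genes described are those of mitochondrial oxidative phosphorylation in bovine nucleus pulposus cells. They were taken by symbol, as NDUF genes, SDHA to SDHD, UQCR genes, CYC1, CYCS, COX4 to COX8 genes and ATP5 genes. Each had to have a probe set annotated to that symbol only. The rule found 85 genes of the 9155 genes with such a probe set, and each gene was represented by its probe set with the highest mean over the 9 arrays. They comprise 36 subunits of complex I, 4 of complex II, 9 of complex III, 13 of complex IV and 16 of complex V. A further 7 genes are associated factors that are not subunits in this grouping: NDUFAF3, NDUFAF5, NDUFAF6, NDUFAF8, NDUFA4L2, COX7A2L and ATP5IF1. NDUFA4 was counted with complex IV, of which its product is a subunit. The filter on low values kept 84 of the 85, and the muscle isoform gene COX6A2 was left out, with intensities of 10.0 to 17.7 on the 9 arrays.

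Oxidative phosphorylation makes ATP in the inner mitochondrial membrane. Complexes I and II pass electrons from NADH and succinate to coenzyme Q, complex III passes them on to cytochrome c, and complex IV reduces oxygen. Complexes I, III and IV pump protons, and complex V, the ATP synthase, uses the return of these protons to make ATP. The nucleus pulposus is the gelatinous core of the intervertebral disc, a tissue with little oxygen whose cells rely largely on glycolysis.

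The cells came from caudal discs of young calves and grew in DMEM that held fetal bovine serum. One group of 3 arrays holds untreated cells, a second of 3 holds cells kept for 5 h at 500 mOsm/kg by added salt, and the last of 3 holds cells kept so for 24 h. No genetic change is named in any group. No time is given for the control, which is shared by the 5 h and 24 h comparisons, so time in culture and salt cannot be told apart. The labels call the cultures biological replicates without naming the animals they came from. A p-value here therefore sets a difference between groups only against the variation between such cultures. In whole cultures such as these, fewer cells of a type and less RNA per cell cannot be told apart.

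Values are linear intensities, and changes are differences of log2(intensity + 16). Calls are probe sets with limma's Benjamini-Hochberg adjusted p under 0.05 among the 18012 tested, and adjusted p is from that fit unless the replicate block is named. A blocked p is from the fit with the replicate block. The block is the replicate number, since the arrays of 1 number deviated together. In a principal component analysis, component 1 (47.7% of the variance) set the 3 arrays numbered 3 apart, and component 2 (31.1%) set the 24 h arrays apart, with control replicate 1 nearest to them. The actin log2 ratio of 3-prime over 5-prime signal, which rises as RNA shortens, was 2.69 ± 0.18 in control, 2.68 ± 0.28 at 5 h and 2.99 ± 0.28 at 24 h (SD, n = 3 each). At 24 h it was 2.83, 2.83 and 3.31 in replicates 1 to 3, where the control arrays of the same numbers gave 2.51, 2.86 and 2.69. The ratio was thus higher than control in replicates 1 and 3 and not in replicate 2. The same ratio for GAPDH was -0.084 ± 0.092, 0.0063 ± 0.045 and 0.025 ± 0.016 in the 3 groups (SD, n = 3 each), and the part of these ratios in the changes was not tested. Of 14 nucleus pulposus markers 10 had a probe set. KRT8, KRT19 and CHAD lay below the filter, while the summed intensity of the 10 was 3571 to 4617 in control and 6396 to 7945 at 24 h, mainly through ACAN and MGP. The markers moved apart, with COL2A1 at -0.39, CDH2 at -0.24 and KRT18 at -0.16 at 24 h, none of them called.

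At 5 h, oxidative phosphorylation genes lay close to control in every complex. The median log2 change over the 84 genes was 0.031, beside -0.030 over all probe sets, and 59 genes were above 0 and 25 below. By complex the medians were 0.014 for I, 0.030 for II, 0.048 for III, 0.027 for IV and 0.031 for V. Quantile normalization turned that of complex I to -0.0062, and no direction is read from shifts of this size. Calls numbered 0 higher and 0 lower of 84, where limma called 0.233% of all probe sets higher and 0.25% lower. At an unadjusted p under 0.05, 1 member was higher and 0 lower, where 7.21% of all probe sets passed in either direction. With the replicate block, which called 2.45% of all probe sets higher and 3.41% lower, 1 member was higher, COX6B2, and 0 were lower.

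COX6B2, the testis-type isoform of a small complex IV subunit, was the member furthest from control at 5 h. Its intensities were 86.5, 46.3 and 49.6 in control replicates 1 to 3, 209.6, 181.5 and 135.5 at 5 h, and 91.8, 104.9 and 79.7 at 24 h. All 3 arrays at 5 h lay above all arrays of the other groups, while control and 24 h overlapped. The log2 change at 5 h was 1.34 ± 0.24 (SE), with adjusted p = 0.067 (blocked 0.0018). At 24 h it was 0.52 ± 0.24 against control, with adjusted p = 0.24, and 0.032 with the block. This probe set is dim, so the added 16 compresses its changes, and the call without the block passed when arrays were centred on their medians (adjusted p = 0.049) or quantile normalized (0.049).

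**Figure D1:**
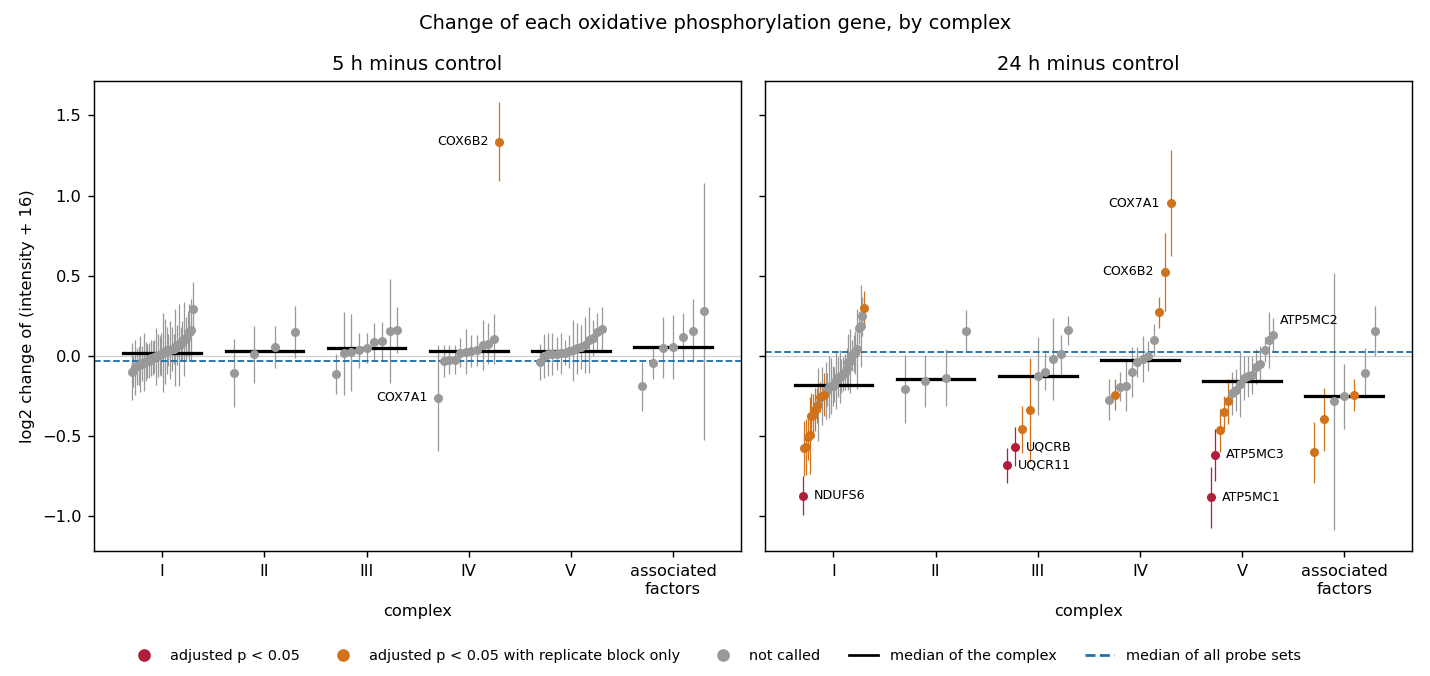
Log2 change of each of the 84 genes (points, with SE bars) against control at 5 h (left) and 24 h (right), grouped by complex. Black bars are medians of each complex and the dashed line is the median of all probe sets. At 24 h NDUFS6, UQCR11, UQCRB, ATP5MC1 and ATP5MC3 were called lower, and complex IV holds COX7A1 and COX6B2 above the rest.

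At 24 h the genes as a whole lay below control by a small amount, with a small set of subunits well below. The median log2 change over the 84 was -0.15, beside 0.023 over all probe sets, and 65 genes were below 0 and 19 above. In replicate pairs 1, 2 and 3 the median over the genes was -0.0068, -0.22 and -0.24, so pair 1 held almost no shift. Summed, the 85 genes made up 2.06 ± 0.13% of an array's intensity in control, 2.11 ± 0.11% at 5 h and 1.86 ± 0.071% at 24 h (SD, n = 3 each). Called lower at 24 h were 5 of 84 (5.95%), NDUFS6, UQCR11, UQCRB, ATP5MC1 and ATP5MC3, where 4.32% of all probe sets were called lower. Called higher were 0, where 4.28% of all probe sets were. At an unadjusted p under 0.05, 3 members were higher and 19 lower, 22 of 84 in all, where 23.6% of all probe sets passed in either direction, so this count lay near the background.

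The replicate block raised both counts. With it, 24 members (28.6%) were lower, beside 17.5% of all probe sets, and 4 (4.76%) were higher, beside 18.3%. Of the 24 lower calls 12 held in all 9 refits that each dropped 1 array: ATP5MC1, ATP5MC3, ATP5PF, NDUFA5, NDUFAF5, NDUFB2, NDUFB7, NDUFC1, NDUFS6, UQCR11, UQCRB and UQCRQ. Of the 4 higher calls COX7A1 was kept in all 9 and COX6B2, COX6C and NDUFS1 were not. By sign alone, 42 members (50%) were lower than the control array of the same number in all 3 pairs, and 12 (14.3%) were higher. Over all probe sets the same rule held 29.5% lower and 33.3% higher. All arrays at 24 h lay below all control arrays in 23 of 84 members, beside 13.5% of all probe sets. They lay above all control arrays in 6, beside 13.9%. At 5 h the arrays lay wholly below control in 0 members and wholly above in 3, beside 6.6% and 4.04%. Separation of the arrays of a single gene is to be read beside these shares.

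**Figure D2:**
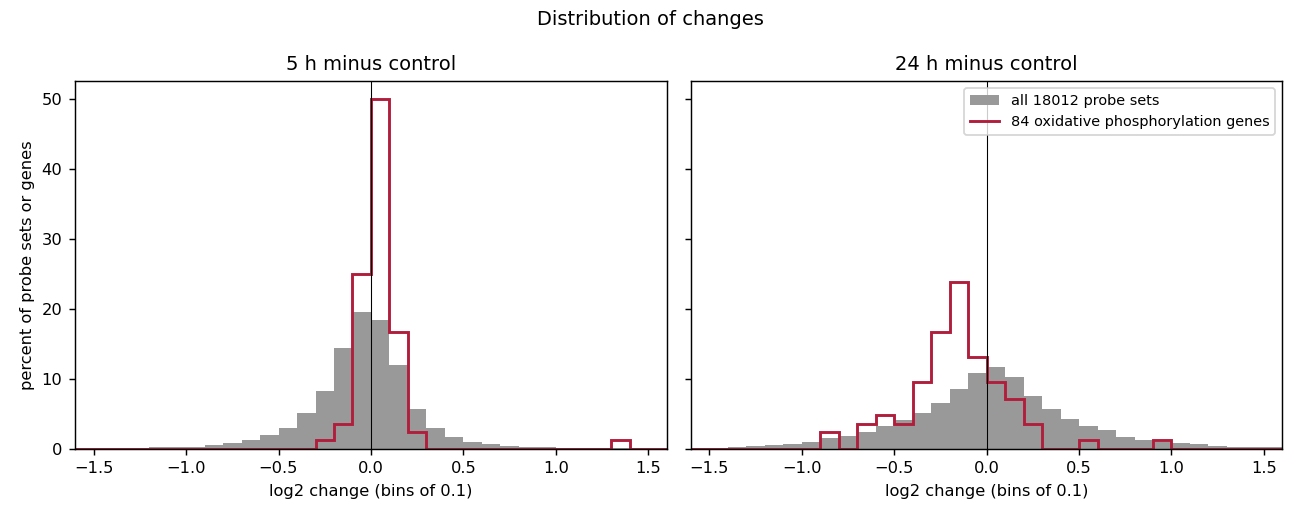
Percent of all 18012 probe sets (grey) and of the 84 oxidative phosphorylation genes (red line) in bins of 0.1 of the log2 change, at 5 h (left) and 24 h (right). At 5 h the genes bunch around 0, and at 24 h they sit mostly below 0, with a median of -0.15.

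Complex I, the NADH dehydrogenase, had a median of -0.19 at 24 h over its 36 genes. Its 6 core genes, which carry the redox centres and are shared with bacterial enzymes, had a median of -0.015. The core genes were split, from -0.30 to 0.30, with 3 below 0 and 3 above. The 30 accessory genes of the complex had a median of -0.19 and ran from -0.87 to 0.25, with 25 of the 30 below 0. These medians are a description and their difference was not tested. Of the 36, NDUFS6 was called lower (2.78%), beside 4.32% of all probe sets. With the block 11 were lower (30.6%) and 1, NDUFS1, was higher (2.78%), beside 17.5% and 18.3% of all probe sets.

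NDUFS6, an accessory subunit that binds zinc and is needed for a late step of complex I assembly, fell most within the complex. Its intensities were 1545, 1797 and 1841 in control replicates 1 to 3, 1690.5, 2004 and 1739 at 5 h, and 998, 930.4 and 875 at 24 h. Every 24 h array lay below every other array, and control and 5 h overlapped. The fall was 0.87 ± 0.12 on the log2 scale against control (adjusted p = 0.0070), lower in 3 of 3 pairs. Leaving out each array in turn kept this call in 9 of 9 refits, with changes of -0.95 to -0.83.

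Further accessory genes of complex I passed with the block only. NDUFB7, a subunit of the membrane arm, gave 1151, 1267 and 1119 in control, 1129.9, 1345 and 922 at 5 h, and 874, 833 and 661 at 24 h. The 24 h arrays lay below all others, with a log2 change of -0.58 ± 0.17 and adjusted p = 0.073, and 0.0024 with the block. NDUFC1 stood at -0.51 ± 0.15 (adjusted p = 0.068, blocked 0.0032) and NDUFB2 at -0.57 ± 0.18 (0.084, blocked 0.0023). A second probe set of NDUFB2, also bright, stood at -0.17 with adjusted p = 0.45, so its probe sets differed in size. NDUFB1 (-0.38), NDUFB6 (-0.37), NDUFA11 (-0.34), NDUFB10 (-0.31), NDUFS4 (-0.26) and NDUFA1 (-0.24) were the remaining accessory genes called lower with the block, apart from NDUFA5.

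NDUFA5, a subunit of the peripheral arm, shows how the choice of probe set bears on a call. Its brightest probe set had intensities of 3516, 4539 and 2949.9 in control, 3914, 4699 and 2855 at 5 h, and 3009, 2845 and 1948 at 24 h. The groups overlapped, although each 24 h array lay below the control array of its number. The log2 change was -0.50 ± 0.24 with adjusted p = 0.26, and 0.0030 with the block. A second, dimmer probe set of NDUFA5 was called lower at 24 h by -0.58 ± 0.14 (adjusted p = 0.041), and a still dimmer one stood at -0.012.

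NDUFS1, the largest core subunit, which carries iron-sulphur clusters, went the other way. It gave 1474, 1528 and 1339 in control, 1414.5, 1480.0 and 1345.5 at 5 h, and 1891, 1774 and 1685 at 24 h, so that the 24 h arrays lay above all others. The log2 change was 0.30 ± 0.11 with adjusted p = 0.13, and 0.016 with the block. A dimmer probe set of NDUFS1 stood at -0.15 with adjusted p = 0.79. The flavoprotein NDUFV1, which takes electrons from NADH, stood at 0.04 ± 0.25 with overlapping groups. NDUFA3 had the second highest change in the complex, 0.25 ± 0.12 (adjusted p = 0.27). NDUFB5 stood furthest above control at 5 h, at 0.29 ± 0.17 (adjusted p = 0.91). Its 5 h arrays, at 1149, 1153 and 1180.7, were above the control arrays at 734, 1019 and 1126, mostly through replicate 1. NDUFA7 stood lowest at 5 h, at -0.098.

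**Figure D3:**
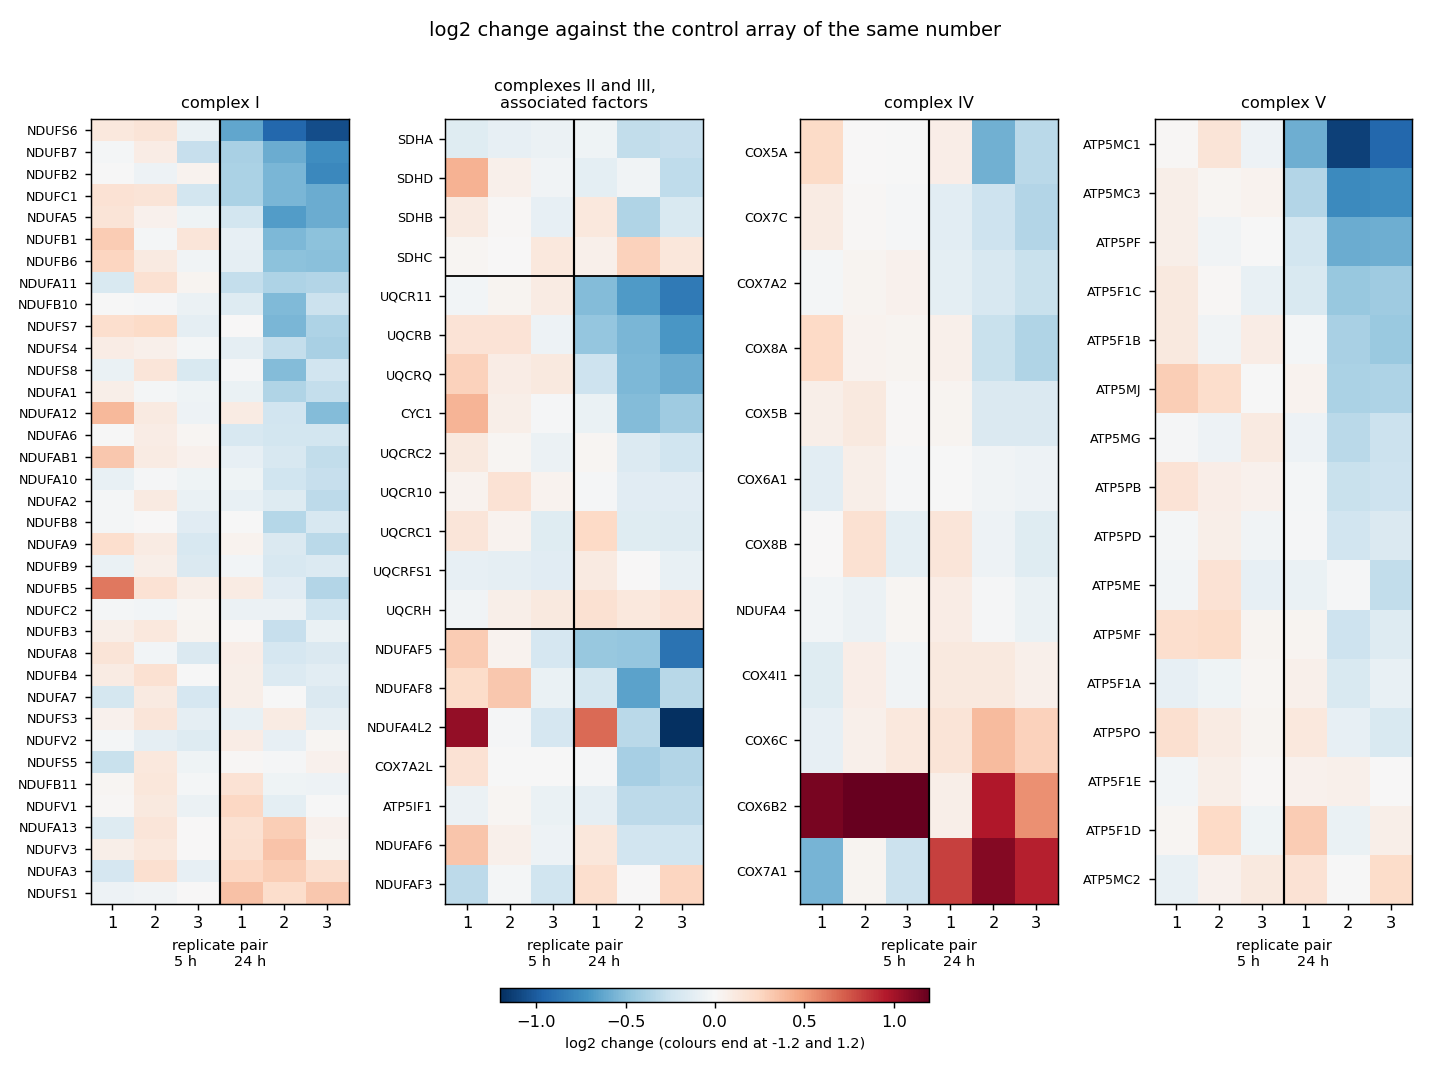
Log2 change of each of the 84 genes against the control array of the same replicate number, at 5 h (left 3 columns of each of the 4 panels) and 24 h (right 3 columns), blue for lower and red for higher, with colours ending at -1.2 and 1.2. Genes are sorted by their 24 h change within each complex, and at 24 h the medians of pairs 1, 2 and 3 are -0.0068, -0.22 and -0.24, so that pair 1 is the palest.

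Complex II, succinate dehydrogenase, which is also an enzyme of the tricarboxylic acid cycle, had no called member against control, with or without the block. The flavoprotein SDHA gave 2052, 2177.5 and 1525 in control, 1849, 2032 and 1451 at 5 h, and 1978, 1770.1 and 1259.8 at 24 h. The array numbered 3 was the lowest of its group each time, and the groups overlapped. Log2 changes at 24 h were -0.21 ± 0.21 for SDHA, -0.14 ± 0.18 for the iron-sulphur subunit SDHB, 0.16 ± 0.13 for the membrane anchor SDHC and -0.16 ± 0.16 for the anchor SDHD. At 5 h SDHA was the lowest (-0.11) and SDHD the highest (0.15) of the 4. Against 5 h, SDHD was lower at 24 h with the block, at -0.30 (adjusted p = 0.045).

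Complex III, the cytochrome bc1 complex, held the small subunits UQCR11, UQCRB and UQCRQ well below control, while UQCRH lay above it. Its 5 small subunits (UQCR10, UQCR11, UQCRB, UQCRH and UQCRQ) had a median of -0.46 at 24 h. They ran from -0.68 to 0.16, with 4 below 0 and 1 above. The core proteins UQCRC1 and UQCRC2 had a median of -0.074, and the redox subunits CYC1 and UQCRFS1 a median of -0.17. The differences between these medians were not tested. Of 9 genes 2 (22.2%) were called lower, UQCR11 and UQCRB, beside 4.32% of all probe sets. With the block UQCRQ and CYC1 joined them, making 4 (44.4%), beside 17.5%.

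UQCR11, the smallest subunit of the complex, gave 2814, 2972 and 2822 in control, 2755, 3036 and 3023 at 5 h, and 1955, 1853 and 1557 at 24 h. All 24 h arrays lay below all others and the control arrays were within a narrow range. It fell by 0.68 ± 0.11 on the log2 scale (adjusted p = 0.011). The call was kept in 8 of 9 refits and ended without control replicate 2, where adjusted p = 0.052.

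UQCRB, which binds near the coenzyme Q site, gave 2654, 3197 and 3067 in control, 2972, 3592 and 2944 at 5 h, and 1925, 2179.8 and 1887 at 24 h. Again no 24 h array reached a control or 5 h array. It fell by 0.57 ± 0.12 on the log2 scale (adjusted p = 0.027), and the call ended without control replicate 2, control replicate 3, 24 h replicate 1 or 24 h replicate 3 (highest adjusted p = 0.11). A dimmer UQCRB probe set stood at 0.11 with adjusted p = 0.89, so the mean of the gene's probe sets gave -0.23 and was not called (adjusted p = 0.52).

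UQCRQ, the small coenzyme Q-binding subunit, gave 1107, 1472 and 1486 in control, 1348, 1561.5 and 1612 at 5 h, and 932, 1005 and 980.4 at 24 h. The 24 h arrays were below all others, at -0.46 ± 0.15 against control (adjusted p = 0.089, blocked 0.0043). CYC1, the cytochrome c1 subunit, varied widely between cultures, with 1590.1, 2558 and 1361 in control and 1508.5, 1782 and 1006 at 24 h. Those groups overlapped, and the log2 change was -0.34 ± 0.32 with adjusted p = 0.63, and 0.028 with the block. UQCRH, the hinge protein, was the highest of the complex at 0.16 ± 0.093 (adjusted p = 0.37). The Rieske iron-sulphur protein UQCRFS1 stood at 0.0085 ± 0.12, the core proteins UQCRC1 at -0.020 ± 0.26 and UQCRC2 at -0.13 ± 0.24, none of them called. At 5 h UQCRQ was the highest of the complex (0.16) and UQCRFS1 the lowest (-0.12).

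**Figure D4:**
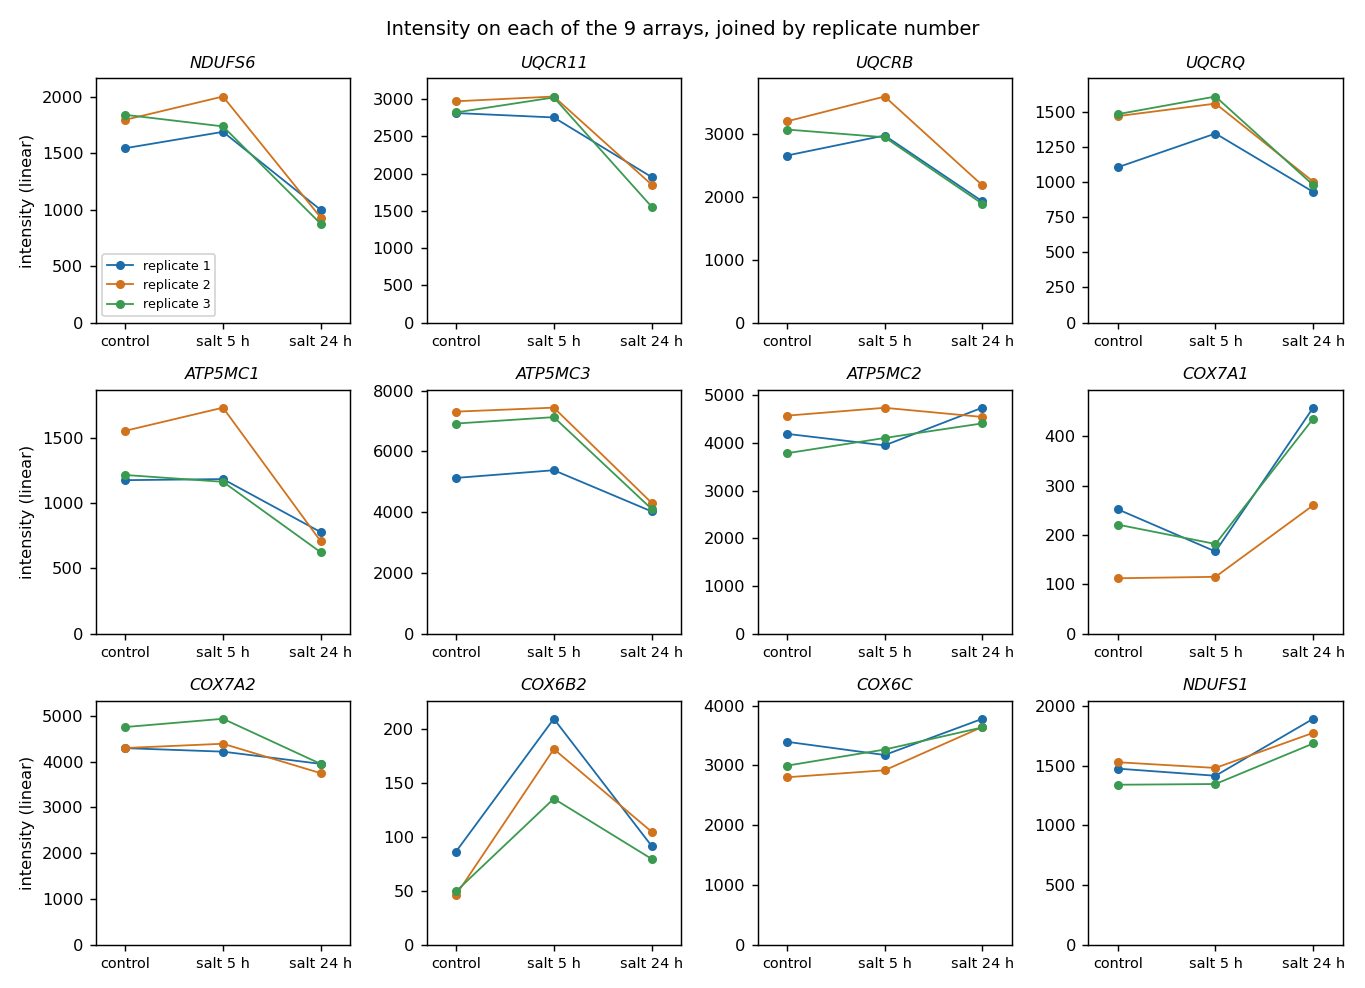
Linear intensity of 12 genes on each array, with control, 5 h and 24 h on the x axis and the arrays of a replicate number joined by a line; each panel starts at 0 and has its own scale. In NDUFS6, UQCR11, UQCRB, UQCRQ, ATP5MC1 and ATP5MC3 all 3 lines drop between 5 h and 24 h, in COX7A1 all 3 climb, and in COX6B2 all 3 peak at 5 h.

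Complex IV, cytochrome c oxidase, differed from the other complexes in having its largest changes upward. Its median at 24 h was -0.029 over 12 genes, near that of all probe sets, and quantile normalization turned it to 0.018. The 9 subunits found in most tissues had a median of -0.10. Calls numbered 0 in either direction, beside 4.28% of all probe sets higher and 4.32% lower. With the block COX6B2, COX6C and COX7A1 were higher (3 of 12, 25%), beside 18.3% of all probe sets. COX7C was lower (1 of 12, 8.33%), beside 17.5%. These counts are too small to set apart from the shares over all probe sets.

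COX7A1, the isoform of subunit 7A typical of heart and skeletal muscle, gave 252.3, 112.4 and 221.2 in control, 166.7, 115.3 and 181.9 at 5 h, and 458.4, 260.4 and 436.1 at 24 h. Each 24 h array lay above every array of the other groups, with the array numbered 2 the lowest of each group. The log2 change was 0.95 ± 0.33 against control with adjusted p = 0.12, and 0.00056 with the block, higher in 3 of 3 pairs. Its common paralogue COX7A2 gave 4292, 4295 and 4752 in control, 4215, 4387 and 4932 at 5 h, and 3948, 3745 and 3947 at 24 h, with a change of -0.19 ± 0.090 (adjusted p = 0.24).

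Skeletal muscle markers moved apart at 24 h. The summed intensity of 8 such genes was 1087 to 1430.0 in control, 1391 to 3740 at 5 h and 2370 to 3833 at 24 h, mainly through the creatine kinase CKM, which rose by 1.99 ± 0.45 at 24 h (adjusted p = 0.032). CKM was already at 3002, 814 and 2932 on the 5 h arrays, where COX7A1 was below its control array in replicates 1 and 3. Of 7 tested muscle markers CKM alone was called at 24 h. With the block 2 were higher, CKM and MYH7 (0.52), and 1, the alpha-actin ACTA1 (-0.60), was lower. TNNC2 (-0.38), TNNT3 (-0.16) and DES (0.26) were called in neither fit. MYH1 lay below the filter, the myoglobin gene MB stood at 0.18, and none was at 0 on all 9 arrays. The muscle isoform COX6A2 stayed below the filter, and COX8B, the isoform of subunit 8 of heart and muscle, stood at -0.020 ± 0.14 with overlapping groups. The part of the muscle markers in the COX7A1 change was not tested.

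COX6C, a small subunit, gave 3394, 2801 and 2995 in control, 3174, 2918 and 3265 at 5 h, and 3779, 3643 and 3635 at 24 h. The 24 h arrays were above all others, at 0.27 ± 0.10 (adjusted p = 0.13, blocked 0.020). COX7C stood at -0.24 ± 0.095 (adjusted p = 0.16, blocked 0.026). COX5A, a matrix-side subunit, had the lowest change of the complex, -0.27 ± 0.13 (adjusted p = 0.24). COX4I1, the regulatory subunit that binds ATP, stood at 0.10 ± 0.10, COX5B at -0.10 ± 0.16, COX6A1 at -0.04 ± 0.09, COX8A at -0.19 ± 0.16 and NDUFA4 at -0.0014 ± 0.092. None of these 5 passed with or without the block at 24 h. At 5 h COX7A1 was the lowest of the complex, at -0.26 ± 0.33.

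Complex V, the ATP synthase, had a median of -0.16 at 24 h over 16 genes, and 13 of the 16 were below 0. Its c ring, the rotor that protons turn, is made of one protein encoded by ATP5MC1, ATP5MC2 and ATP5MC3, whose precursors differ in their import sequences. Of the 16 genes ATP5MC1 and ATP5MC3 were called lower (12.5%), beside 4.32% of all probe sets. With the block ATP5PF, ATP5F1C and ATP5F1B were also lower, making 5 (31.2%), and 0 were higher. The shares of all probe sets with the block were 17.5% lower and 18.3% higher.

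ATP5MC1 gave 1175.5, 1553.5 and 1215 in control, 1184, 1731 and 1163 at 5 h, and 778, 707 and 623 at 24 h. It was below all other arrays on each 24 h array and fell by 0.88 ± 0.19 on the log2 scale (adjusted p = 0.027). Mean intensity was 1315 ± 208 in control and 703 ± 77.2 at 24 h (SD, n = 3 each). The call was kept in 4 of 9 refits and ended without control replicate 2, control replicate 3 or any of the 3 arrays at 24 h (highest adjusted p = 0.11).

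ATP5MC3 gave 5129, 7312 and 6920.3 in control, 5383, 7443 and 7131 at 5 h, and 4027, 4311 and 4109 at 24 h. Replicate 1 was the lowest of the control and 5 h arrays, and the 24 h arrays lay below all of them. It fell by 0.62 ± 0.16 on the log2 scale (adjusted p = 0.047), and the call was kept in 2 of 9 refits, those without control replicate 1 or 5 h replicate 1 (highest adjusted p otherwise 0.16).

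ATP5MC2 did not share this pattern. Its intensities were 4195, 4577 and 3787 in control, 3952.5, 4742 and 4108 at 5 h, and 4745, 4549 and 4414 at 24 h, with overlapping groups. The log2 change was 0.13 ± 0.10 with adjusted p = 0.54, and 0.23 with the block. Within each array the log2 ratio of ATP5MC1 over ATP5MC2 differed from control at 24 h by -1.01, and that of ATP5MC3 over ATP5MC2 by -0.75, with no overlap between the groups. The ratio of COX7A1 over COX7A2 was higher by 1.15, also without overlap. The ratios of ATP5MC1 over ATP5MC3 (-0.26) and of COX8B over COX8A (0.17) overlapped between the groups, each with p = 0.2 in the exact two-sided permutation test. For each of the 3 ratios without overlap that test gave an exact p = 0.1, the smallest that 3 arrays against 3 allow. At 5 h these 3 ratios differed from control by 0.0066, 0.019 and -0.28, with overlapping groups. Such a ratio shows unequal change of its genes and does not depend on the scaling of the array.

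**Figure D5:**
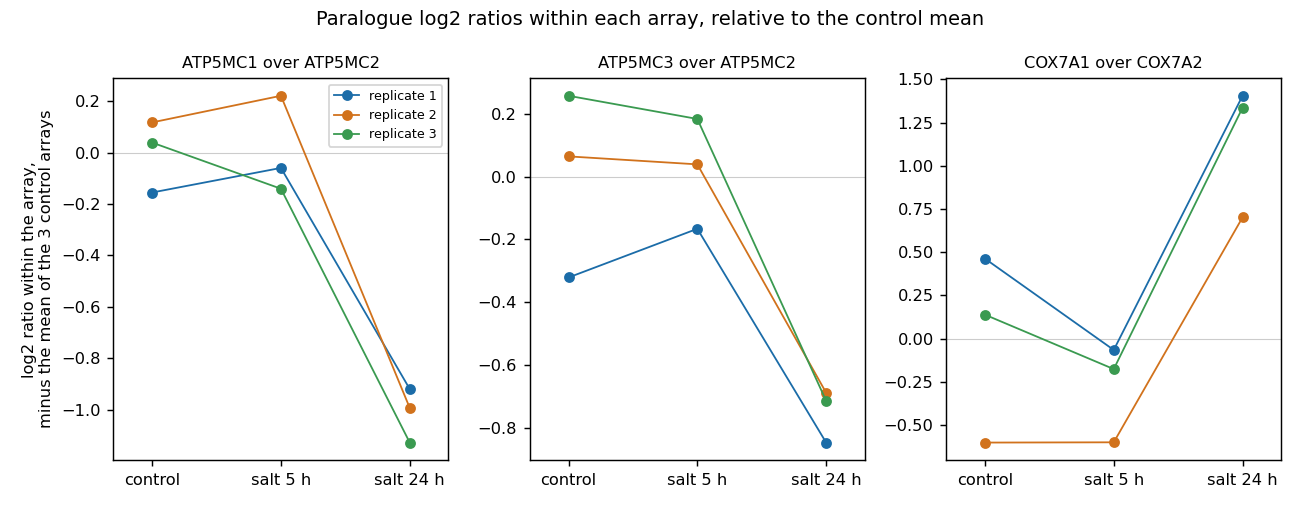
Log2 ratio of paralogous genes within each array, shifted so that the mean of the 3 control arrays is 0; lines join the arrays of a replicate number. The ratios of ATP5MC1 and of ATP5MC3 over ATP5MC2 drop at 24 h in all 3 replicates, by -1.01 and -0.75 on average against control, and that of COX7A1 over COX7A2 climbs by 1.15.

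The other parts of the ATP synthase changed less. ATP5PF, the coupling factor 6 of the peripheral stalk, gave 4183, 4992 and 4062 in control and 3588, 3301 and 2705.5 at 24 h, without overlap (-0.47 ± 0.13, adjusted p = 0.066, blocked 0.0026). Of the catalytic F1 head, the central gamma subunit ATP5F1C gave 3074, 3735 and 3519.9 in control and 2711, 2717 and 2622.5 at 24 h, without overlap. Its change was -0.35 ± 0.10, with adjusted p = 0.069, and 0.0070 with the block. The catalytic beta subunit ATP5F1B stood at -0.28 ± 0.14 (adjusted p = 0.27, blocked 0.032). The alpha subunit ATP5F1A stood at -0.068 ± 0.11 and the peripheral stalk subunit ATP5PO at -0.052 ± 0.11, neither called. ATP5F1D, the delta subunit, had the second highest change of the complex, at 0.10 ± 0.17 (adjusted p = 0.83). At 5 h ATP5MJ was the highest (0.17) and ATP5F1A the lowest (-0.040) of the complex.

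Among the associated factors 0 of 7 were called at 24 h. With the block NDUFAF5, NDUFAF8 and ATP5IF1 were lower (42.9%), beside 17.5% of all probe sets. NDUFAF5, a complex I assembly factor that modifies a core subunit, gave 216.0, 280.0 and 336.9 in control and 152.8, 198.6 and 175.4 at 24 h, without overlap. Its change was -0.60 ± 0.19, with adjusted p = 0.090, and 0.0059 with the block, and a second probe set stood at -0.74 ± 0.21 (adjusted p = 0.063). NDUFAF8, its partner in assembly, stood at -0.40 ± 0.20 (adjusted p = 0.27, blocked 0.048). ATP5IF1, which inhibits the reverse reaction of the ATP synthase, stood at -0.25 ± 0.10 (adjusted p = 0.17, blocked 0.025). COX7A2L, which links complexes III and IV, stood at -0.25 ± 0.20 (adjusted p = 0.53).

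NDUFA4L2, a paralogue of NDUFA4 known as a target of hypoxia signalling, varied most between cultures. Its intensities were 852, 914 and 389.6 in control, 1781, 903.5 and 336.3 at 5 h, and 1376, 729 and 158.6 at 24 h. At 24 h replicate 1 lay above its control array and replicate 3 below it, and the groups overlapped. The change at 24 h was -0.28 ± 0.80 with adjusted p = 0.91, so no direction can be given. NDUFAF3 was the highest of the 7 at 24 h, at 0.16 ± 0.15 (adjusted p = 0.65), and the lowest at 5 h, at -0.19.

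Compared directly, 24 h and 5 h held more calls than 24 h and control. Of 84 members 11 (13.1%) were lower at 24 h than at 5 h, beside 6.15% of all probe sets, and 1 (1.19%), COX7A1, was higher, beside 8.01%. The 11 were NDUFS6, NDUFC1, NDUFB1 and NDUFB6 of complex I, UQCR11, UQCRB and UQCRQ of complex III, and ATP5MC1, ATP5MC3, ATP5PF and ATP5F1C of complex V. None was of complex II or IV. This comparison shares the 24 h arrays with that against control. With the block 39 (46.4%) were lower, beside 19.6% of all probe sets, and 5 (5.95%) were higher, beside 24.2%. Of the 39 lower calls 19 held in all 9 refits that each dropped 1 array, and of the 5 higher calls COX7A1 and NDUFS1 did. Those lower with the block only included NDUFB5 (-0.42), NDUFS7 (-0.41), NDUFA12 (-0.36), the acyl carrier protein NDUFAB1 (-0.35) and NDUFA6 (-0.25) of complex I. In complex V they included ATP5MJ (-0.40), ATP5PB (-0.28), ATP5MF (-0.27) and ATP5MG (-0.22), and in complex IV COX6B2 (-0.81), COX5A (-0.35), COX8A (-0.29) and COX7A2 (-0.21). Of these named genes ATP5MJ and COX6B2 alone held in all 9 refits. A dimmer probe set of ATP5MG stood at 0.070 in the same comparison and was not called (blocked adjusted p = 0.57). That of NDUFAB1 stood at -0.088 and was also not called (blocked adjusted p = 0.76). The 5 higher were COX7A1, NDUFAF3 (0.35), NDUFS1 (0.33), NDUFA3 (0.28) and COX6C (0.24). In all 3 pairs 53 (63.1%) were lower, beside 28.7%, and 12 (14.3%) were higher, beside 36.4%.

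Centring each array on its median shifted the median of all probe sets by 0.072 at 5 h, -0.045 at 24 h against control and -0.12 at 24 h against 5 h. At 24 h against control the median over members became -0.20, with all probe sets at -0.022. Centring moves every probe set of an array alike, so it cannot change the distance between these medians. Over all probe sets, 24 h against 5 h held 1443 higher and 1108 lower calls as deposited, and 925 and 1515 when centred. The medians of complexes I, II, III and V stayed below 0 at 24 h under centring and under quantile normalization.

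Other mitochondrial genes were called in both directions at 24 h. Over all probe sets the calls were 4.28% higher and 4.32% lower, or 18.3% and 17.5% with the block. The counts in each list are small and are to be read beside these shares, against which no list was tested. At 5 h limma without the block called 0 in each of these lists. With the block, 1 lower assembly factor of complex I, 2 lower assembly factors of complexes II to V, 2 higher and 1 lower regulators and 1 lower coenzyme Q gene were called at 5 h. Among the lower ones was TEFM, a mitochondrial transcription elongation factor, with a mean intensity of 266 ± 17.7 in control and 113 ± 56 at 5 h (SD, n = 3 each, blocked 0.0043). PDSS1 stood at -0.94 (blocked 0.015) and COX15, which makes haem A, at -0.91 (blocked 0.0039). Of 22 assembly factors of complexes II to V, 3 fell and 0 rose at 24 h. SDHAF4, which helps mature complex II, fell by 1.14 ± 0.21. COX10, which takes part in making the haem of complex IV, fell by 0.76 ± 0.19, and COX20, which chaperones a core subunit of complex IV, by 1.25 ± 0.18. With the block 6 of the 22 were higher and 5 lower. Of 9 assembly factors of complex I 0 were called, and with the block 0 were higher and 3 lower. These 9 include the members NDUFAF3, NDUFAF5, NDUFAF6 and NDUFAF8 described above, and the 3 blocked calls were NDUFAF5, NDUFAF8 and ACAD9 (-1.01, blocked 0.0024). The medians of the lists were -0.13 and -0.11.

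Of 9 genes of coenzyme Q synthesis 3 fell and 1 rose, with a list median of -0.076. PDSS1, which makes the side chain, fell by 1.29 ± 0.22, COQ2, which attaches it to the ring, by 0.98 ± 0.17, and the hydroxylase COQ7 by 0.88 ± 0.16, while the kinase-like COQ8A rose by 1.22 ± 0.22. Adjusted p for these 4 ranged from 0.014 to 0.017. DHODH, the pyrimidine synthesis enzyme that feeds electrons to coenzyme Q, fell by 1.73 ± 0.33 (adjusted p = 0.018), the 1 call among 5 genes of other electron entry. With the block, 3 coenzyme Q genes were higher and 4 lower, and SQOR, which passes electrons from sulphide to coenzyme Q, was higher at 0.55 (adjusted p = 0.051, blocked 0.0037).

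Of 20 genes of the tricarboxylic acid cycle and pyruvate oxidation 3 fell and 2 rose, with a median of -0.091. IDH3A, the catalytic subunit of NAD-dependent isocitrate dehydrogenase, fell by 1.06 ± 0.17 (adjusted p = 0.011), the malate dehydrogenase MDH2 by 0.48 ± 0.12 (0.046) and the pyruvate carrier subunit MPC1 by 0.53 ± 0.12 (0.034). PDK3, a kinase that inhibits pyruvate dehydrogenase, rose by 1.19 ± 0.23 (adjusted p = 0.019) and PC, pyruvate carboxylase, by 1.25 ± 0.22 (0.015). Of 11 carriers 2 fell and 0 rose, with a median of -0.12: the ADP/ATP translocase SLC25A5 by 0.68 ± 0.16 and the outer membrane channel VDAC2 by 0.81 ± 0.18. With the block the channel VDAC1 was also lower, at -0.49 (adjusted p = 0.065, blocked 0.0037). The translocases SLC25A4 (-0.035) and SLC25A6 (0.13) were not called.

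Of 14 tested regulators of mitochondrial biogenesis 1 rose and 1 fell, with a median of 0.044, counts too small to set against the shares over all probe sets. SIRT3, a mitochondrial deacetylase, gave 129.5, 54.7 and 71.2 in control and 264.8, 245.6 and 229.3 at 24 h, and rose by 1.44 ± 0.26 (adjusted p = 0.015). TFB2M, a transcription factor of mitochondrial DNA, gave 864.6, 877.9 and 955.2 in control and 551.4, 555.7 and 670.8 at 24 h, and fell by 0.59 ± 0.13 (adjusted p = 0.026). PPARGC1A, a coactivator of biogenesis, lay below the filter. With the block 2 regulators were higher and 4 lower, and among the cycle genes 3 and 6.

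Subunits encoded in mitochondrial DNA were not analysed here. Of the 97 current symbols that match the rule 12 were also not analysed here, among them CYCS, the electron carrier between complexes III and IV, COX4I2, COX6B1, COX7B and COX8C.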

How the data were processed

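Affymetrix one-colour bovine arrays were hybridised with biotinylated cRNA made from total RNA by oligo(dT)-T7 priming, per the labels' protocols. The authors deposited linear intensities. The submitters' processing notes name PLIER and Affymetrix Expression Console as the tools, and neither the versions and settings nor any normalization between arrays is given in the sources used here. Signal over background is therefore unknown, and the number of arrays limits the precision.

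Symbols came from the platform annotation, where 13292 of 24016 probe sets outside the manufacturer's controls carry 1 symbol, 86 several and 10638 none. Values were transformed as log2(value + 16), which understates changes of dim genes, and probe sets with a mean under the 25th percentile were left out. Group means over all 9 arrays were fitted with limma 3.58.1 in R 4.3.3 (lmFit, eBayes with trend), with no further normalization. The code was tested on simulated data.

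The groups share replicate numbers. Deviations from group means correlated by 0.56 to 0.90 in all same-numbered pairs, over 0.1, so the numbers were taken to pair the cultures. Arrays numbered 1 and 2 also correlated with each other, by 0.31 to 0.54, beside 0.56 to 0.72 within either number. Their correlations with arrays numbered 3 were -0.78 to -0.52. The threshold of 0.1 thus sets number 3 apart but does not separate number 1 from number 2. The fit with the number as a block is given beside a result where it changes a call.

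Members and gene lists were chosen with earlier results of these data known, and list counts are descriptions. Genes named are members called in any comparison, the extremes of each complex, fixed core subunits and paralogues, and up to 4 called genes of each other list. SLC25A4, SLC25A6, PPARGC1A, TEFM, COX15, ACAD9, SQOR, VDAC1 and the markers other than CKM, CD14 and MGP were added after their values were seen. Marker lists of leukocytes, endothelium, red blood cells and adipocytes were also measured. Alternatives covered the pseudocount, filter, scaling, block, arrays fitted, trend, probe sets of a gene and arrays left out.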

Additional observations from a re-analysis of the deposited data

Results flagged for a closer look

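For 12 genes the change from control at 24 h differed from that at 5 h, by limma's test of 24 h minus 5 h. In complex I the 24 h value was below the 5 h value by a log2 change of -0.94 for NDUFS6 (adjusted p = 0.0042), -0.54 for NDUFC1 (0.042), -0.52 for NDUFB1 (0.043) and -0.47 for NDUFB6 (0.044). In complex III it was -0.72 for UQCR11 (adjusted p = 0.0061), -0.66 for UQCRB (0.012) and -0.62 for UQCRQ (0.025). In complex V it was -0.92 for ATP5MC1 (adjusted p = 0.016), -0.67 for ATP5MC3 (0.027), -0.48 for ATP5PF (0.046) and -0.37 for ATP5F1C (0.046). COX7A1 of complex IV was 1.21 higher at 24 h than at 5 h (adjusted p = 0.042).

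The 12 genes went the same way in 3 of 3 same-numbered pairs. The calls of NDUFS6, UQCR11 and ATP5MC1 were kept in 9 of 9 refits that left out an array, that of UQCRB in 8 (it ended without 24 h replicate 1, adjusted p = 0.0501), and those of the other 8 in 1 to 4. The COX7A1 call ended when arrays were centred on their medians (adjusted p = 0.072) or quantile normalized (0.066). A dimmer UQCRB probe set went the other way at 24 h against 5 h, at 0.34 (adjusted p = 0.49, blocked by replicate number 0.041). With the mean of a gene's probe sets, the UQCRB change was -0.16 (adjusted p = 0.63) and the NDUFB1 change -0.18 (adjusted p = 0.71), neither called.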

How the results depend on the processing

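None of the results computed changed sign across a call under the alternatives run. The count of members called at 5 h, 0 without the block, was 1 when arrays were centred, quantile normalized, or fitted with the replicate block, with or without centring, and 1 under the block with any array left out. The count at 24 h against control, 5, was 8 when centred, 28 with the replicate block, 37 with the block and centring, 3 when only the compared arrays were fitted, 3 without the trend and 2 without the arrays numbered 3. Leaving out 1 array gave 1 (without control replicate 2) to 11 (without control replicate 1), and, under the block, 13, 15, 15, 15, 26, 26, 29, 34 and 34. The count at 24 h against 5 h, 12, was 22 when centred, 44 with the replicate block, 54 with both, 7 without the filter and 5 without the arrays numbered 3, with 3 (without 24 h replicate 1) to 13 (without control replicate 1) over single arrays and, under the block, 22, 26, 29, 29, 30, 39, 39, 41 and 45. The refit without the arrays numbered 3 was chosen after seeing the data, as were the block with centring and the block with arrays left out.

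Centring, with or without the replicate block, moved the 5 h medians to 0.10 over members, 0.087 for complex I, 0.10 for II, 0.12 for III, 0.0996 for IV and 0.10 for V, and those of 24 h against 5 h to -0.31, -0.31 for I, -0.24 for II, -0.30 for III, -0.22 for IV and -0.37 for V. Without the arrays numbered 3 the 5 h median of complex V was 0.057. With single arrays left out, 5 h medians ran from -0.035 to 0.077 over members, -0.062 to 0.061 for I, -0.060 to 0.13 for II, -0.0025 to 0.14 for III, -0.0021 to 0.035 for IV and -0.037 to 0.12 for V, so their direction rests on single arrays. Those at 24 h against control ran from -0.20 to -0.071 over members, -0.24 to -0.12 for I, -0.21 to -0.022 for II, -0.27 to -0.030 for III, -0.073 to 0.016 for IV (above 0 without 24 h replicate 3) and -0.21 to -0.11 for V. Those at 24 h against 5 h ran from -0.24 to -0.14 over members, -0.24 to -0.13 for I, -0.27 to 0.026 for II, -0.34 to -0.11 for III, -0.16 to -0.014 for IV and -0.28 to -0.16 for V. The pseudocounts of 1 and 64 and the filter at the 50th percentile changed none of these counts by more than 1.5 times. Apart from the counts given, causes were not tested.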

Other observations

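Markers of other cell types were measured beside the oxidative phosphorylation genes. The summed intensity of 6 leukocyte markers was 186 to 203 in control, 192 to 212 at 5 h and 387 to 429 at 24 h, mainly through CD14, a receptor for bacterial lipopolysaccharide, which rose by 1.43 ± 0.19 (adjusted p = 0.0054). CD68, a macrophage marker, stood at 0.031, CSF1R at 0.10, AIF1 at 0.29 and PTPRC at 0.50, none of them called at 24 h in either fit. At 5 h CSF1R was higher with the block, at 0.67 (adjusted p = 0.030), with mean intensities of 14.8 in control and 33.2 at 5 h. ITGAM lay below the filter. The sum of 6 endothelial markers was 166 to 223 in control and 173 to 209.9 at 24 h, with VWF below the filter. Within it, with the replicate block, CLDN5 was lower at -0.62 (adjusted p = 0.0041) and TEK higher at 0.49 (0.015). The sum of 4 red blood cell markers was 62.6 to 90.9 in control and 49.6 to 72.7 at 24 h, with HBA, ALAS2 and SLC4A1 below the filter. The sum of 3 adipocyte markers was 1356 to 1817 in control and 1259 to 1723 at 24 h, with ADIPOQ below the filter. With the block FABP4 was lower at -0.66 (adjusted p = 0.0067) and LPL higher at 0.68 (0.0075), so the sum holds opposite changes. Among nucleus pulposus markers MGP, the matrix Gla protein, rose by 2.17 ± 0.42 at 24 h (adjusted p = 0.019), and with the block ACAN (1.35), VCAN (0.79) and COMP (0.39) were also higher. COL2A1 (-0.39), CDH2 (-0.24) and KRT18 (-0.16) were not called.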
